A study of Mus musculus with 28 samples.

Results

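The genes described here are 9 genes of blood coagulation and of fibrinolysis, the breakdown of clots, measured in mouse spleen: F3, F10, Thbd, Procr, Plat, Plau, Plaur, Serpinb2 and Thbs1. They are fixed by symbol, and the symbols were chosen with earlier results of these data known. Each was read from its probe set with the highest mean among those that name that gene alone, and they are 9 of 18193 genes read in this way. Spleen RNA was measured on 28 arrays of a 1-colour mouse expression platform. All mice carried floxed Pparg alleles (PPAR g flfl). Null mice also carried MMTV-Cre, a recombinase driven by a mouse mammary tumour virus promoter, which the series describes as removing Pparg from epithelial and immune cells, and wild-type mice were MMTV-Cre-. The labels also call the deletion spleen-specific, speak of splenocytes as well as of homogenised tissue, and do not say whether an array holds RNA of 1 mouse or of a pool. Mice ate a control diet or one supplemented with abscisic acid (ABA), a plant hormone that also occurs in mammals, and received either no challenge or lipopolysaccharide (LPS), a component of bacterial membranes that TLR4 senses. The dose, the time after LPS and the age of the mice are not given in the sources used here.

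The 28 arrays fall into 12 groups in 2 experiments. The wild-type experiment held 12 arrays of wild-type mice: 4 per diet after LPS and 2 per diet without it. The genotype experiment held 16 arrays, a pair for each of the 8 combinations of genotype, diet and LPS. The number of arrays limits the precision, and since no label ties a replicate to an animal of its own, the p-values measure no more than the spread between arrays of a group, which may be technical. In whole spleen RNA, fewer cells of a type and less RNA per cell cannot be told apart.

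Coagulation starts when tissue factor, encoded by F3, meets factor VII, and runs through factor X, encoded by F10, to thrombin, which cuts fibrinogen into fibrin. Thrombomodulin, encoded by Thbd, and the endothelial protein C receptor, encoded by Procr, turn thrombin's activity round: together they let thrombin activate protein C, which inactivates clotting factors. Clots are dissolved by plasmin, which is made from plasminogen by the tissue-type activator Plat and the urokinase-type activator Plau; Plaur is the cell-surface receptor that holds urokinase, and Serpinb2 is plasminogen activator inhibitor type 2. Thbs1 encodes thrombospondin 1, an adhesive glycoprotein stored in platelets and secreted into matrix. Macrophages and endothelial cells exposed to bacterial products are known to change several of these genes, and the spleen holds both.

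Values are the deposited log2 expression values. Each experiment has its own lowest value, 2.29 and 2.24 for the wild-type and the genotype experiment, so no level was compared between experiments, and a value within 0.5 log2 units of it is called near the lowest here. Pparg, the targeted gene, was low in both genotypes: it read 2.31 to 3.56 on the 8 wild-type and 2.45 to 3.31 on the 8 null arrays of the same experiment, so its level gives no check of the genotypes. Markers of spleen were present: array means were 7.85 or more over 5 B cell markers, 6.57 or more over 6 T cell markers and 6.15 or more over 8 markers of red pulp macrophages. Among them Cd163, was near the lowest on all 8 arrays with LPS in the wild-type experiment. Xist, transcribed from the inactive X chromosome, was high on 18 arrays, including each of the 12 in the wild-type experiment. In wild-type mice of the genotype experiment on the control diet it was high with LPS (12.46 and 12.17) and low without (2.25 and 2.24). On the ABA diet with LPS it was low there (2.25 on both arrays). Among those arrays, differences tied to Xist cannot be told apart from LPS on the control diet, or from diet with LPS. Cpa1, a pancreatic enzyme, exceeded the lowest value by over 2 log2 units on 4 arrays.

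LPS changed the anticoagulant receptors Procr and Thbd most, and in opposite directions. On the control diet Procr in wild-type mice rose by 3.61 ± 0.39 log2 units (SE), 12.2-fold, and Thbd fell by 2.33 ± 0.35, 5.01-fold, while F10 rose by 1.07 ± 0.31. These 3 genes also passed on the ABA diet and in null mice, with the same directions. In all, 2 of the 9 members rose and 1 fell on the control diet (limma, Benjamini-Hochberg adjusted p under 0.05 over 13458 genes), where 10.6% of all genes tested rose and 7.5% fell. On the ABA diet the counts were again 2 and 1, beside 8.93% and 6.33% of all genes. The median change of the 9 members was 0.56 on the control and 0.70 on the ABA diet, against 0.00 for all genes tested on each. In the genotype experiment 8 members could be tested. There 4 rose and 1 fell in wild-type mice, diets averaged, beside 8.55% and 5.49% of 13377 genes, and 3 rose and 1 fell in null mice, beside 3.95% and 3.45%. The members' medians there were 1.02 in wild-type and 0.78 in null mice, against 0.00 and -0.01 for all genes. The wild-type arrays of that experiment enter both wild-type fits, so those counts are not independent of each other. None of the members passed in any comparison of diets, genotypes or interactions.

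**Figure D1:**
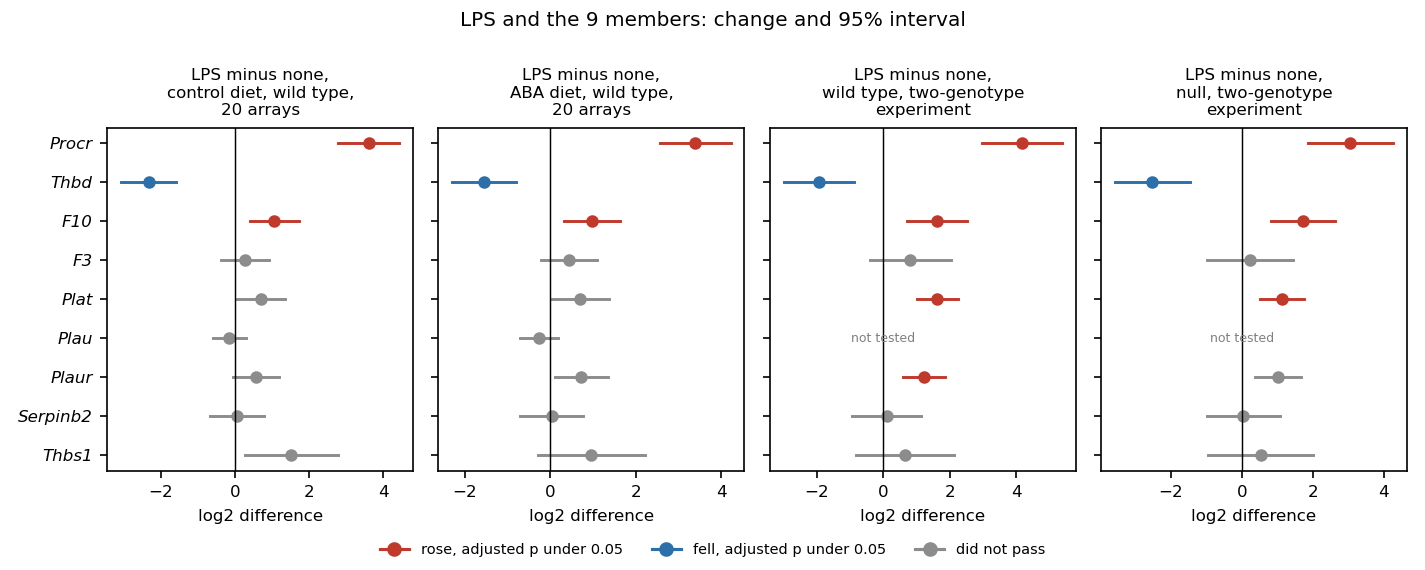
LPS minus no LPS for each member, as a log2 difference (point) with its 95% confidence interval (line), in 4 comparisons: wild-type mice of both experiments on each diet (20 arrays), and wild-type and null mice of the genotype experiment with diets averaged. Coloured points passed an adjusted p of 0.05; Procr and F10 lie right of 0 and Thbd left of 0 in every panel, and Plau was not tested in the last 2 panels.

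Procr, the protein C receptor (probe set 1420664_s_at), showed the largest change of the 9 in each LPS comparison. In the wild-type experiment it read 12.27, 12.64, 13.11 and 12.64 on the control diet with LPS and 12.48, 12.11, 12.08 and 12.37 on the ABA diet with LPS. Without LPS it read 9.46 and 9.85 on the control diet and 9.10 and 9.45 on the ABA diet. All 8 arrays with LPS lay above all 4 without, with means of 12.46 ± 0.34 (SD, n = 8) and 9.47 ± 0.31 (SD, n = 4). In wild-type mice of the other experiment it read 9.43 and 10.01 (control diet) and 9.04 and 9.83 (ABA diet) with LPS, and 5.01 and 5.72 (control diet) and 4.31 and 6.60 (ABA diet) without. Null mice read 8.60 and 9.53 (control diet) and 8.99 and 9.64 (ABA diet) with LPS, and 7.02 and 5.72 (control diet) and 6.21 and 5.57 (ABA diet) without. The groups with and without LPS did not overlap in either genotype, while the 4 groups with LPS overlapped from one to the next in the order of their means. The adjusted p was 8.67e-06 for the control and 1.95e-05 for the ABA diet, where the change was 3.39 ± 0.39 (SE). It was 0.00155 for the change of 4.17 ± 0.53 in wild-type mice of the genotype experiment and 0.0102 for that of 3.06 ± 0.53 in null mice. Within the wild-type experiment alone the change was 3.01 ± 0.23 on the control and 2.99 ± 0.23 on the ABA diet (adjusted p = 9.30e-05 and 0.000113). Within the wild-type arrays of the genotype experiment it was 4.36 ± 0.85 and 3.98 ± 0.85, which did not pass on these 8 arrays (adjusted p = 0.0910 and 0.176). Leaving out any single array kept Procr past the threshold in all 4 comparisons. In null mice it missed the threshold (2.58, adjusted p = 0.0548) when the arrays with Cpa1, 1 null array without LPS on each diet, were left out. The manufacturer's suffix _s_at marks a probe set that can match transcripts of more than 1 gene, although its annotation names only Procr.

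The promoter window of Procr, 250 bases before to 50 bases after an annotated start in RefSeq (GRCm38.p6, chr2:155750967-155751266, plus strand), is shown because Procr carried the largest change. Windows for 5 of the 9 members were given, F3, F10, Procr, Plaur and Serpinb2. Matches on either strand to 4 short motifs are in capitals: a kB-like motif (GGGANNNNCC), an AP-1-like motif (TGANTCA), a GC box (GGGCGG) and a TATA motif (TATAAA).
Procr: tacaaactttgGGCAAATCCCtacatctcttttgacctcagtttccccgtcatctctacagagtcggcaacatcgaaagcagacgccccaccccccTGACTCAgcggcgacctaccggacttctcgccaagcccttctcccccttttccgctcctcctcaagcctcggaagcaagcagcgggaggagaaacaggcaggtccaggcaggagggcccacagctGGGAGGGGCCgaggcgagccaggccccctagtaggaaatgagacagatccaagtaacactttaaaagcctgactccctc
This window held 2 matches to the kB-like motif, starting 239 and 29 bases before the start, and 1 to the AP-1-like motif, starting 154 bases before it. Of 32851 RefSeq promoter windows of the same length, 20.7% held the kB-like motif, 7.81% the AP-1-like motif, 35.7% the GC box and 13.6% the TATA motif. The window of F3, which did not pass in any comparison, held 2 matches to the kB-like motif, 2 to the AP-1-like motif, 3 to the GC box and 1 to the TATA motif. The overlapping windows of Serpinb2, which did not pass either, each held 1 match to the AP-1-like and 1 to the TATA motif. A match describes these letters and is not a measured binding site.

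Thbd, thrombomodulin (probe set 1448529_at), was the member that fell. In the wild-type experiment it read 8.62 and 7.98 on the control diet and 7.04 and 7.01 on the ABA diet without LPS. With LPS it read 5.87, 5.63, 5.98 and 5.64 on the control diet and 5.50, 5.28, 5.88 and 6.03 on the ABA diet. All 8 arrays with LPS lay below all 4 without. In the other experiment wild-type mice read 9.20 and 8.25 (control diet) and 8.15 and 9.63 (ABA diet) without LPS, and 6.51 and 6.36 (control diet) and 7.90 and 6.69 (ABA diet) with it. Null mice read 10.09 and 8.67 (control diet) and 9.29 and 8.91 (ABA diet) without LPS, and 6.29 and 6.76 (control diet) and 7.33 and 6.47 (ABA diet) with it. The groups did not overlap in either genotype, and the 4 groups without LPS overlapped each other from one to the next in the order of their means. Thbd fell by 2.33 ± 0.35 (SE, adjusted p = 0.000257) on the control diet, by 1.55 ± 0.35 (adjusted p = 0.00695) on the ABA diet, by 1.95 ± 0.47 (adjusted p = 0.0257) in wild-type mice of the genotype experiment and by 2.53 ± 0.47 (adjusted p = 0.0131) in null mice. Within the wild-type experiment alone the change was -2.52 ± 0.24 and -1.35 ± 0.24 on the control and ABA diets (adjusted p = 0.0003 and 0.00805), and within the wild-type arrays of the genotype experiment -2.30 ± 0.71 and -1.59 ± 0.71 (adjusted p = 0.187 and 0.427). In null mice the call was lost without replicate 1 of the control diet with LPS (-2.41, adjusted p = 0.0502). In wild-type mice of that experiment it was lost without replicate 2 of the ABA diet without LPS, replicate 2 of the ABA diet with LPS, replicate 1 of the control diet without LPS or either replicate of the control diet with LPS, with changes from -1.98 to -1.58 and adjusted p up to 0.0943.

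**Figure D2:**
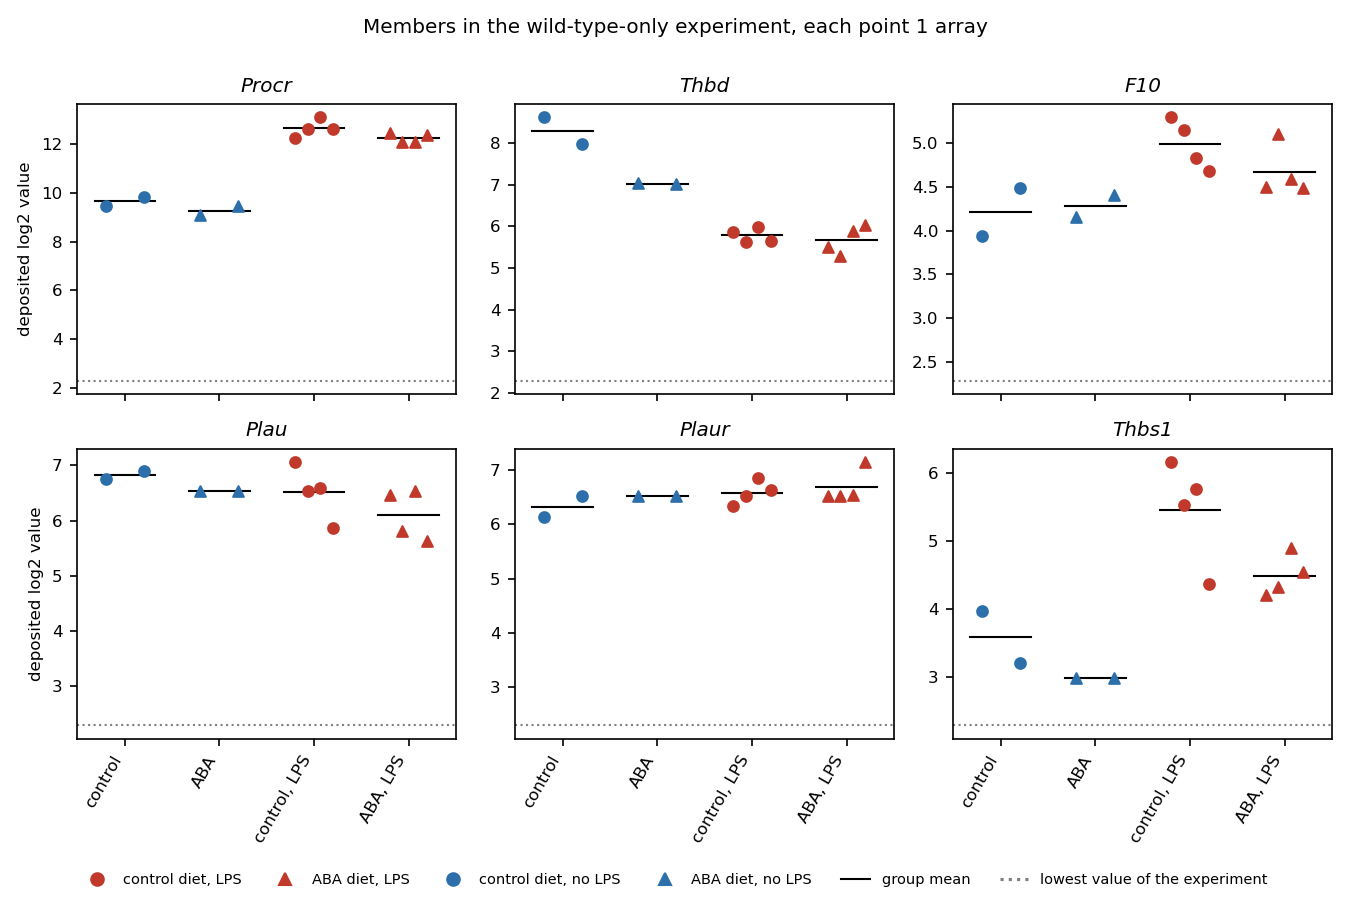
Deposited log2 values of 6 members on each of the 12 arrays of the wild-type experiment, by diet and LPS; each point is 1 array, the black line is the group mean and the dotted line is the experiment's lowest value, 2.29. Procr, F10 and Thbs1 are higher and Thbd lower on all 8 arrays with LPS than on the 4 without, while Plau and Plaur overlap.

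F10, which encodes factor X (probe set 1449305_at), rose less and with less certainty. Its 3 probe sets disagreed, and the values here are from the brightest. In the wild-type experiment it read 5.29, 5.14, 4.82 and 4.68 on the control diet and 4.50, 5.10, 4.59 and 4.49 on the ABA diet with LPS, and 3.93 and 4.48 (control diet) and 4.15 and 4.40 (ABA diet) without. The arrays with LPS lay above those without, but the lowest with LPS, 4.49, was barely above the highest without, 4.48. In wild-type mice of the other experiment it read 5.09 and 6.52 (control diet) and 6.49 and 6.08 (ABA diet) with LPS, and 4.22 and 4.65 (control diet) and 4.22 and 4.67 (ABA diet) without. Null mice read 6.54 and 5.51 (control diet) and 6.57 and 6.27 (ABA diet) with LPS, and 3.82 and 4.72 (control diet) and 4.22 and 5.28 (ABA diet) without. The groups did not overlap in either genotype, and F10 passed in all 4 comparisons.

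F10 rose by 1.07 ± 0.31 (SE, adjusted p = 0.0261) on the control diet and by 0.98 ± 0.31 (adjusted p = 0.0442) on the ABA diet. In the genotype experiment it rose by 1.61 ± 0.40 (adjusted p = 0.0297) in wild-type and by 1.71 ± 0.40 (adjusted p = 0.0349) in null mice. Within the wild-type experiment alone the changes were 0.77 on the control and 0.39 on the ABA diet, neither past the threshold (adjusted p = 0.0835 and 0.350). Within the wild-type arrays of the genotype experiment they were 1.37 and 1.84 (adjusted p = 0.269 and 0.261). The calls lay near the threshold, and each was lost without some single arrays. Some of these arrays were outside the comparison and left the change as it was. In null mice it stayed at 1.71 without either wild-type array on the ABA diet with LPS. On the control diet the call was lost without replicate 1 of the control diet without LPS in the wild-type experiment, without either replicate of that group in the other experiment, or without replicate 2 of the control diet with LPS there, with adjusted p up to 0.0907. On the ABA diet it was lost without any 1 of 12 of the 20 arrays (adjusted p up to 0.132). These were all 4 with LPS on the control diet, replicate 2 of the ABA diet with LPS and replicate 1 of each diet without LPS in the wild-type experiment, and all 4 on the ABA diet and replicate 2 of the control diet without LPS in the other. In null mice it was lost without either wild-type array on the ABA diet with LPS, either null array on the ABA diet with LPS, or replicate 1 of the other 3 null groups (adjusted p up to 0.117). In wild-type mice of that experiment it was lost without either array on the ABA diet with LPS, replicate 1 of either diet without LPS or replicate 2 of the control diet with LPS (up to 0.101). It was also lost with array weights on the ABA diet (0.58, adjusted p = 0.374), in null mice (adjusted p = 0.119) and in wild-type mice of the genotype experiment (adjusted p = 0.0689), and without the arrays with Cpa1 on either diet (adjusted p = 0.0858 and 0.0699). The mean of the 3 probe sets gave 0.35 on the control diet, 0.43 on the ABA diet and 0.54 in wild-type mice of the genotype experiment, none of them past the threshold (adjusted p = 0.105, 0.0586 and 0.116). Without a filter the call was lost on the ABA diet, in null mice and in wild-type mice of the genotype experiment (adjusted p = 0.0653, 0.0614 and 0.0531), and with a term for Xist on the ABA diet and in null mice (adjusted p = 0.0719 and 0.0536). The probe set 1418993_s_at gave a change of -0.01 on the control diet (adjusted p = 1) and 0.56 in null mice (adjusted p = 0.351). The probe set 1418992_at gave a change of 0 on both diets and in wild-type mice of the genotype experiment (adjusted p = 1 in each) and 0.21 in null mice (adjusted p = 0.0417). The promoter window of F10 (RefSeq, GRCm38.p6, chr8:13037058-13037357, plus strand), shown beside that of Procr as the other member that rose in every comparison, held 1 match to the kB-like motif, starting 245 bases before the start, and none to the other motifs.
F10: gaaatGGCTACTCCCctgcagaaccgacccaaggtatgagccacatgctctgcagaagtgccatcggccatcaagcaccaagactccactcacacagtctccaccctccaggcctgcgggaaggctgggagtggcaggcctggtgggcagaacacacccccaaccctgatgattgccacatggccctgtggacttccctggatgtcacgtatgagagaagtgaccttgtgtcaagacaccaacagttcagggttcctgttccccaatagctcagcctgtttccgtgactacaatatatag

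F3, tissue factor (probe set 1417408_at), did not pass in any comparison. On all 12 arrays of the wild-type experiment it lay near the lowest value, and 10 of them held the same value, 2.34. In the other experiment it ranged from 2.81 to 5.48, with wild-type arrays at 4.61 and 4.80 (control diet) and 5.39 and 4.28 (ABA diet) with LPS and at 4.12 and 4.05 (control diet) and 2.81 and 4.83 (ABA diet) without. The groups overlapped, and the difference there was 0.82 ± 0.54 (SE, adjusted p = 0.383), with a 95% interval from -0.40 to 2.03. In null mice it was 0.23 ± 0.54 (adjusted p = 0.867).

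The genes of fibrinolysis were split between the experiments. Plat, the tissue-type plasminogen activator (probe set 1415806_at), rose with LPS in both genotypes of the genotype experiment. Wild-type arrays there read 4.80 and 5.62 (control diet) and 5.43 and 4.75 (ABA diet) with LPS, and 3.57 and 3.55 (control diet) and 3.40 and 3.56 (ABA diet) without. Null arrays read 5.78 and 4.67 (control diet) and 4.49 and 4.29 (ABA diet) with LPS, and 4.03 and 3.56 (control diet) and 3.60 and 3.56 (ABA diet) without. No array with LPS overlapped one without in either genotype. The rise was 1.63 ± 0.27 (SE, adjusted p = 0.00624) in wild-type and 1.12 ± 0.27 (adjusted p = 0.0426) in null mice. In wild-type mice the call held without any single array. The other Plat probe set, 1458553_at, showed a change of 0 in both genotypes (adjusted p = 1). It was too low to pass the filter used for the tests, so a change may not be seen there. The mean of both probe sets, which it lowers, gave 0.82 in wild-type and 0.56 in null mice.

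In null mice the Plat call was lost without any 1 of 10 of the 16 arrays, with adjusted p up to 0.123. These were all 4 wild-type arrays without LPS, all 4 null arrays on the ABA diet, replicate 2 of the null control diet without LPS and replicate 1 of the null control diet with LPS. Without the last of these, the array at 5.78, the change was 0.84. It was also lost without the arrays with Cpa1 (0.99, adjusted p = 0.143), with array weights (adjusted p = 0.145) and with replicate numbers as a block (1.12, adjusted p = 0.0540). Plat was near the lowest throughout the wild-type experiment, between 2.29 and 2.31. The fit of both experiments gave 0.70 ± 0.31 on either diet, which did not pass (adjusted p = 0.135 and 0.144), and the change within the wild-type experiment was 0.00 on each diet.

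Plau, the urokinase-type activator (probe set 1422139_at), had the reverse pattern. It ranged from 5.63 to 7.06 in the wild-type experiment and sat at the lowest value on all 16 arrays of the other, where it could not be tested. With LPS it read 7.06, 6.53, 6.59 and 5.87 on the control diet and 6.46, 5.82, 6.53 and 5.63 on the ABA diet. Without LPS it read 6.75 and 6.91 on the control diet and 6.53 on both ABA diet arrays. In that experiment 4 of 12 arrays held this same value, 6.53. The groups overlapped, and within that experiment the difference with LPS was -0.31 ± 0.34 (SE) on the control and -0.42 ± 0.34 on the ABA diet, neither past the threshold (adjusted p = 0.735 and 0.511).

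Plaur, the urokinase receptor (probe set 1452521_a_at), rose with LPS in wild-type mice of the genotype experiment. They read 8.01 and 8.92 (control diet) and 7.89 and 8.08 (ABA diet) with LPS, and 7.17 and 7.53 (control diet) and 6.19 and 7.09 (ABA diet) without. These groups did not overlap, and the rise was 1.23 ± 0.28 (SE, adjusted p = 0.0225). It was lost without replicate 1 of the ABA diet without LPS, replicate 2 of the ABA diet with LPS, replicate 1 of the control diet without LPS or replicate 2 of the control diet with LPS, with adjusted p up to 0.0838. Null mice read 7.72 and 7.96 (control diet) and 7.44 and 8.13 (ABA diet) with LPS, and 7.54 and 6.85 (control diet) and 6.32 and 6.45 (ABA diet) without. There the groups overlapped through the single array at 7.54, and the difference of 1.02 ± 0.28 did not pass (adjusted p = 0.0648). It passed when arrays were quantile normalised (1.14, adjusted p = 0.0231) or centred on their medians (1.16, adjusted p = 0.0198). In the wild-type experiment Plaur ranged only from 6.13 to 7.15, with 5 of 12 arrays at the same value, 6.52, and the change with LPS was 0.26 ± 0.21 on the control diet (adjusted p = 0.575). Whether the change differed between the experiments was not tested. The Plaur window (RefSeq, GRCm38.p6, chr7:24462233-24462532, plus strand), shown for comparison as a member that passed in 1 comparison only, held 1 match to the kB-like motif starting 46 bases before the start, 1 to the AP-1-like motif starting 69 bases before it and 3 to the GC box.
Plaur: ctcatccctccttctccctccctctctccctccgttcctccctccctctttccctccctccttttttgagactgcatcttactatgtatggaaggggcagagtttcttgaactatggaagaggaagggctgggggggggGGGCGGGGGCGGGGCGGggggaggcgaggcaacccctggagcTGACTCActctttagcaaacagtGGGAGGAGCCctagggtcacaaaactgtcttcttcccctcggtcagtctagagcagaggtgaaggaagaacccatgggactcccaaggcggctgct

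**Figure D3:**
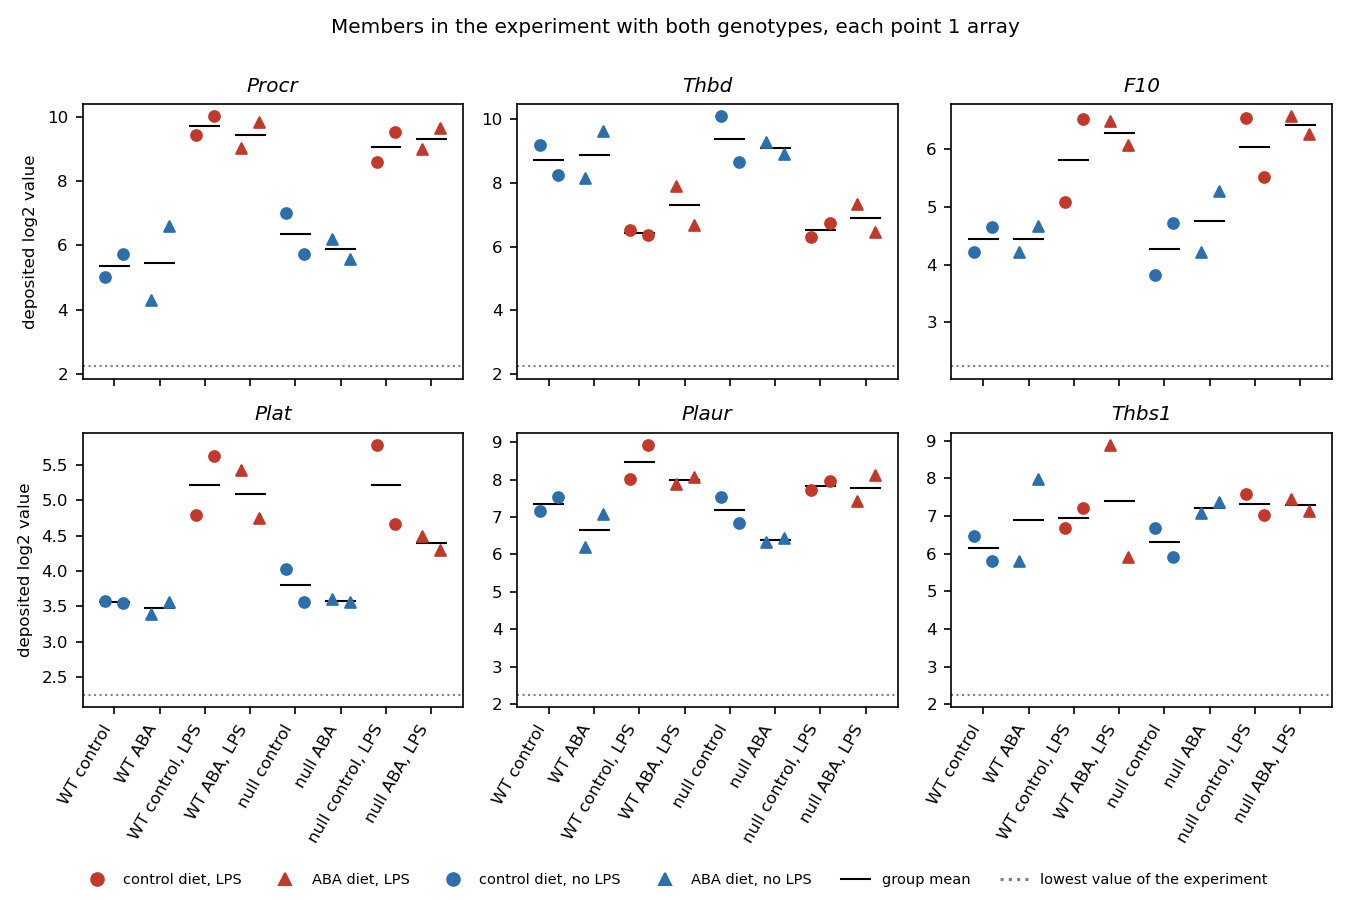
Deposited log2 values of 6 members on each of the 16 arrays of the genotype experiment, by genotype (WT, wild type), diet and LPS; each point is 1 array, the black line is the mean of 2 arrays and the dotted line is the experiment's lowest value, 2.24. Procr, F10 and Plat are higher and Thbd lower with LPS in both genotypes without overlap, Plaur overlaps in null mice, and Thbs1 overlaps in both.

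Serpinb2, plasminogen activator inhibitor type 2 (probe set 1419082_at), was barely measurable. It sat at the lowest value on all 12 arrays of the wild-type experiment and near it on 13 of the 16 others. The 3 exceptions were 4.40 on replicate 1 of wild-type ABA diet with LPS, 3.92 on replicate 2 of wild-type ABA diet without LPS and 3.01 on replicate 1 of null control diet with LPS. The other replicates of these groups read 2.33, 2.33 and 2.35. Its change with LPS was 0.10 ± 0.46 (SE, adjusted p = 0.971) in wild-type and 0.04 ± 0.46 (adjusted p = 1) in null mice.

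Thbs1, thrombospondin 1 (probe set 1460302_at), was higher with LPS on every array of the wild-type experiment but did not pass in any of the 4 LPS comparisons. There it read 6.17, 5.54, 5.77 and 4.38 on the control diet and 4.21, 4.33, 4.90 and 4.55 on the ABA diet with LPS, and 3.98 and 3.21 (control diet) and 3.00 on both ABA diet arrays without. Within that experiment alone the change was 1.87 ± 0.46 (SE, adjusted p = 0.0323) on the control diet and 1.50 ± 0.46 (adjusted p = 0.0671) on the ABA diet. In the other experiment it varied widely between replicates. Wild-type mice read 6.67 and 7.20 (control diet) and 8.88 and 5.91 (ABA diet) with LPS, and 6.47 and 5.80 (control diet) and 5.80 and 7.97 (ABA diet) without. Null mice read 7.59 and 7.02 (control diet) and 7.44 and 7.12 (ABA diet) with LPS, and 6.68 and 5.91 (control diet) and 7.07 and 7.37 (ABA diet) without. The groups overlapped in both genotypes, with differences of 0.65 ± 0.66 in wild-type and 0.53 ± 0.66 in null mice (adjusted p = 0.590 and 0.688). The fit of both experiments gave 1.53 ± 0.59 on the control diet (adjusted p = 0.0855) and 0.96 ± 0.59 on the ABA diet (adjusted p = 0.298). The control diet change passed with the mean of both Thbs1 probe sets (1.01, adjusted p = 0.0479), with array weights (1.64, adjusted p = 0.0152) and with a term for Xist (2.11, adjusted p = 0.0344). The other Thbs1 probe set alone gave 0.49 ± 0.17 on the control diet (adjusted p = 0.0703).

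The 2 wild-type arrays with the highest Thbs1 and the highest Serpinb2 were the same arrays, replicate 1 of the ABA diet with LPS (8.88 and 4.40) and replicate 2 of the ABA diet without LPS (7.97 and 3.92). They also held 5.39 and 4.83 of F3, the highest of the wild-type arrays. The mean over 10 markers of megakaryocytes and platelets was highest of the 16 arrays of that experiment on these arrays, at 6.65 and 6.92, against 5.27 to 6.37 on the others. None of the 9 or 10 of these markers tested passed in any of the 4 LPS comparisons, and Gp6 and Treml1 were near the lowest on all 8 of these wild-type arrays. The mean over 6 markers of mesothelium was 4.74 and 3.64 on these arrays, against 2.92 to 4.21 on the other wild-type arrays of that experiment. Among the 4 wild-type arrays with LPS, the one with Thbs1 at 8.88 also had the highest mean over markers of red pulp macrophages (10.21 against 8.62 to 8.99), monocytes (10.36 against 9.07 to 9.66), neutrophils (9.68 against 8.54 to 9.45), stromal cells (8.80 against 7.63 to 7.96) and adipose tissue (5.56 against 2.37 to 4.46). The part of these cells in the Thbs1, Serpinb2 and F3 values was not tested.

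The diet comparisons called none of the 9 members, and none had an unadjusted p under 0.05 (limma). In wild-type mice 0.00743% of all genes tested passed for ABA against control diet without LPS, 0.0149% with LPS and 0% for the interaction of diet and LPS, and 788, 684 and 561 genes had an unadjusted p under 0.05. In null mice 0.179% passed without LPS and 0.0972% with LPS. In wild-type mice the differences ran from -0.56 to 0.38 without LPS and from -0.49 to 0.34 with LPS. Procr differed by -0.15 ± 0.42 (SE, 95% interval -1.04 to 0.75) without LPS and by -0.37 ± 0.35 (-1.10 to 0.37) with LPS. Thbd without LPS differed by -0.56 ± 0.38 (-1.37 to 0.25). Within the wild-type experiment it was lower on both ABA arrays (7.04 and 7.01) than on both control arrays (8.62 and 7.98), a difference of -1.28 ± 0.28 that did not pass (adjusted p = 0.126), and in wild-type mice of the other experiment it was 0.16 ± 0.71. Thbs1 with LPS differed by -0.49 ± 0.52 (-1.60 to 0.62). Within the wild-type experiment it was -0.97 ± 0.37 (-1.82 to -0.12, adjusted p = 0.552), and within the wild-type arrays of the other experiment 0.46 ± 1.25. Of the other members without LPS, Serpinb2 differed by 0.38, Plaur by -0.25, Plau by -0.15, F3 by -0.13, Thbs1 by 0.07, F10 by 0.04 and Plat by -0.04. With LPS, Serpinb2 differed by 0.34, Plau by -0.27, Thbd by 0.22, Plaur by -0.09, F10 by -0.05, Plat by -0.04 and F3 by 0.03. The interaction of diet and LPS was largest for Thbd, at 0.77 ± 0.49 (-0.27 to 1.82), and within the wild-type experiment it was 1.17 ± 0.34 (adjusted p = 0.453). For Thbs1 it was -0.57 ± 0.83, for Procr -0.22 ± 0.55, and for F3, Plaur, Plau, F10, Serpinb2 and Plat it lay between -0.12 and 0.16. In null mice the members nearest to the threshold by the brightest probe sets were Plaur without LPS and Plat with LPS. Plaur differed by -0.81 ± 0.40 (adjusted p = 0.734) and Plat by -0.83 ± 0.39 (adjusted p = 0.674). For Plat the ABA arrays read 4.49 and 4.29 and the control arrays 5.78 and 4.67. F3, Procr, Thbd, Plat, Serpinb2, F10 and Thbs1 without LPS lay between -0.85 (F3) and 0.93 (Thbs1), and Serpinb2, F3, Plaur, Thbs1, Procr, Thbd and F10 with LPS between -0.35 (Serpinb2) and 0.39 (F10).

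**Figure D4:**
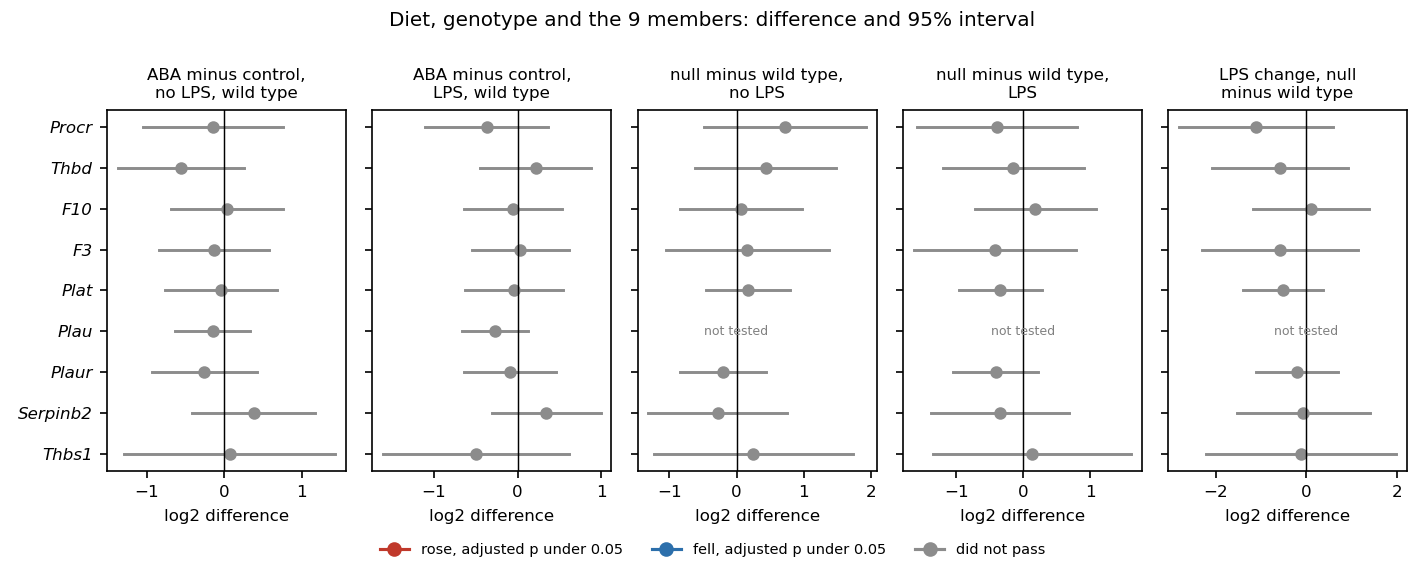
Differences between diets in wild-type mice and between genotypes (log2, point) with 95% confidence intervals (line) for the 9 members, without and with LPS, and the difference between genotypes in the LPS change (last panel). Every interval includes 0 and no member passed; Plau was not tested in the 3 panels with null mice.

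Null and wild-type mice did not differ past the threshold in any member. None of 8 passed without LPS, with LPS or for the difference in LPS response (limma). With the brightest probe sets none had an unadjusted p under 0.05. Of all genes, 0.00748%, 0.0299% and 0.0299% passed in these comparisons, and 283, 604 and 597 had an unadjusted p under 0.05. The F10 probe set 1418992_at differed by 0.18 ± 0.05 (SE) with LPS (unadjusted p = 0.0041, adjusted p = 0.484). For the difference in LPS response it gave 0.21 ± 0.07 (unadjusted p = 0.0139, adjusted p = 0.822). The LPS change of Procr was 1.11 ± 0.75 log2 units (SE) smaller in null mice, with a 95% interval from -2.81 to 0.59 (adjusted p = 0.943). Both sides of that difference were measured: without LPS null arrays averaged 6.13 ± 0.65 and wild-type arrays 5.41 ± 0.98 (SD, n = 4 each), and with LPS 9.19 ± 0.49 and 9.58 ± 0.43. The LPS change of Thbd differed by -0.58 ± 0.66 (-2.07 to 0.91), that of Plat by -0.51 ± 0.39 (-1.39 to 0.37), that of Plaur by -0.21 ± 0.40 (-1.11 to 0.69) and that of F10 by 0.11 ± 0.57 (-1.17 to 1.39). For F3 it was -0.59 ± 0.76, for Thbs1 -0.12 ± 0.93 and for Serpinb2 -0.07 ± 0.64. The levels of null against wild-type mice without LPS differed most for Procr (0.72 ± 0.53), followed by Thbd (0.43 ± 0.47), and those of Thbs1, Plat, F3, F10, Plaur and Serpinb2 lay between -0.28 and 0.25. With LPS the differences ran from -0.43 (F3) over Plaur, Procr, Serpinb2, Plat, Thbd and Thbs1 to 0.18 (F10). Plaur passed in wild-type and not in null mice, and the difference between the genotypes did not pass.

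The other genes of the pathway came from 7 lists of 54 genes, and 50 of them were analysed here. On the control diet 2 of 33 tested rose and 4 fell, on the ABA diet 1 rose and 4 fell, in wild-type mice of the genotype experiment 4 of 32 rose and 1 fell, and in null mice 1 rose and 2 fell. Beside these stand the shares of all genes given with the members, 10.6% and 7.5%, 8.93% and 6.33%, 8.55% and 5.49%, and 3.95% and 3.45%, for rising and falling in the same order. Their median change was 0.00 on the control and -0.02 on the ABA diet, against 0.00 for all genes on each.

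Anxa2, a cell-surface protein that binds plasminogen and its tissue-type activator, rose in all 4 comparisons, by 2.17 ± 0.28 (SE, adjusted p = 5.50e-05) on the control diet, 2.11 ± 0.28 on the ABA diet, 2.40 ± 0.36 in wild-type mice of the genotype experiment and 1.82 ± 0.36 in null mice. Its partner S100a10 fell by 0.97 ± 0.32 (adjusted p = 0.0476) on the control diet and did not pass in the other 3. Vkorc1, the enzyme that recycles vitamin K for the maturation of clotting factors, fell by 1.79 ± 0.21 (adjusted p = 2.62e-05) on the control diet and by 1.30 ± 0.21 on the ABA diet. It fell by 1.37 ± 0.23 in wild-type mice of the genotype experiment and by 1.74 ± 0.23 in null mice. Mrc2, the urokinase receptor-associated protein, fell by 0.75 ± 0.18 on the ABA diet (adjusted p = 0.0093), where all 8 arrays with LPS of the wild-type experiment were near the lowest. Gas6, a vitamin K-dependent ligand of TAM receptors, fell by 2.74 ± 0.70 in null mice (adjusted p = 0.0492).

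Among the thrombospondins and their receptors, Cd36, a scavenger receptor that binds thrombospondin 1, fell by 1.33 ± 0.28 (SE) on the control diet and by 1.74 ± 0.28 on the ABA diet. In the genotype experiment it differed by -1.21 in wild-type and -1.37 in null mice and did not pass (adjusted p = 0.0905 and 0.0852). Thbs4 rose by 1.35 ± 0.41 on the control diet and by 2.45 ± 0.30 in wild-type mice of the genotype experiment, and was near the lowest on 6 of 8 arrays with LPS and 4 of 4 without in the wild-type experiment. Thbs2 fell by 0.39 ± 0.12 on the control diet and by 0.68 ± 0.12 on the ABA diet, and was near the lowest on all 8 arrays with LPS there. Serpina10 and Tfpi2, both inhibitors of clotting enzymes, rose by 0.71 ± 0.12 and 0.68 ± 0.15 in wild-type mice of the genotype experiment, from near the lowest value on all 4 arrays without LPS. None of 6 procoagulant factors and none of 4 fibrinolysis inhibitors tested passed on either diet, but 13 of the 15 factors and 4 of the 5 inhibitors read were near the lowest on all 12 arrays of the wild-type experiment, where a change cannot be seen.

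**Figure D5:**
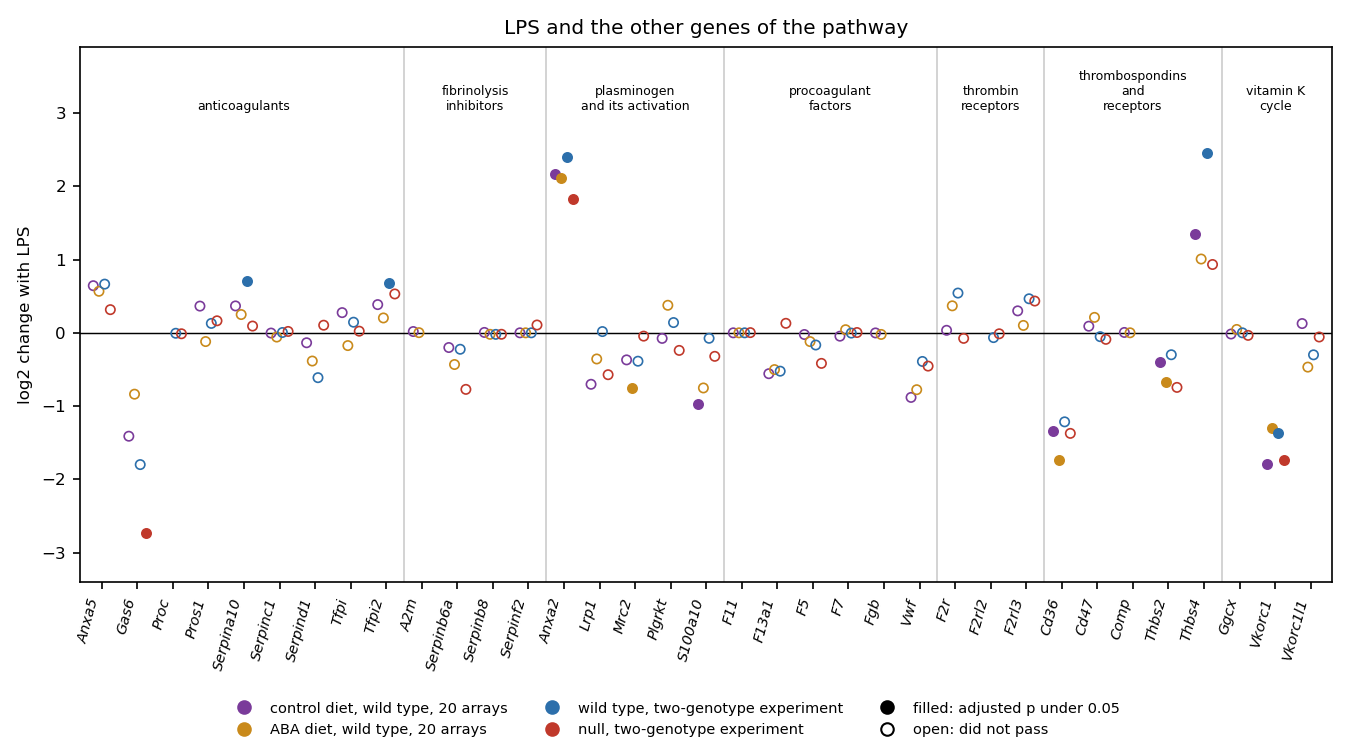
Log2 change with LPS for the other tested genes of the pathway, by list, in 4 comparisons (colours): wild-type mice of both experiments on each diet, and wild-type and null mice of the genotype experiment. Filled points passed an adjusted p of 0.05; Anxa2 is above 0 and Vkorc1 below 0 with filled points in all 4, and most other genes lie near 0 with open points.

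Markers of cells that carry these genes were read the same way, against the same shares of all genes (10.6% rising and 7.5% falling for the control diet, 8.93% and 6.33% for the ABA diet, 8.55% and 5.49% in wild-type and 3.95% and 3.45% in null mice of the genotype experiment). Of 8 markers of red pulp macrophages, 4 fell and none rose in each of the 4 comparisons, and their array mean was 6.15 to 7.33 with LPS against 8.52 to 9.26 without in the wild-type experiment. In the other experiment it was 8.62 to 10.21 with LPS against 10.83 to 12.17 without in wild-type mice and 8.90 to 9.79 against 11.33 to 12.25 in null mice. Thbd was lower on the same arrays. Of 9 erythroid markers, 7 fell on the control diet, 8 on the ABA diet, 8 in wild-type mice of the genotype experiment and 0 in null mice (limma). Their array mean was 5.17 to 7.22 with LPS against 10.29 to 13.04 without in those wild-type mice. In null mice it spread widely, 7.38 to 10.87 against 7.45 to 12.78, with medians of 9.79 and 11.99. Of 7 monocyte markers, 2 rose and 2 fell on the control diet, 2 rose and 1 fell on the ABA diet, 4 rose and 1 fell in wild-type mice of the genotype experiment, and 3 rose in null mice. Of 12 neutrophil markers, 1 rose on the control diet, 3 rose and 1 fell on the ABA diet, and 7 rose among wild-type and 4 among null mice of the genotype experiment. Their array mean was 8.54 to 9.68 with LPS against 6.72 to 7.80 without in those wild-type mice, 8.25 to 9.29 against 6.77 to 7.81 in null mice, and 6.12 to 7.42 against 6.46 to 7.89 in the wild-type experiment.

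Of 10 endothelial markers tested in wild-type mice of both experiments, 1 rose and 3 fell on the control diet and 1 rose and 1 fell on the ABA diet. In the genotype experiment 1 of 11 rose and 1 fell in wild-type mice, and 0 rose and 2 fell in null mice (limma). Cdh5, which encodes VE-cadherin, was the marker that rose, by 1.39 ± 0.36 (SE, adjusted p = 0.0138) on the control diet. Stab2, a scavenger receptor of sinusoidal endothelium, fell by 3.21 ± 0.35 on the control diet and in each of the other 3 comparisons. Tek fell by 1.34 ± 0.26 on the control diet and by 2.25 ± 0.30 in null mice, and Eng fell by 0.31 ± 0.09 on the control diet. In the wild-type experiment Eng was near the lowest on every array, where a change cannot be seen, and Tek on every array with LPS. The array mean of the endothelial markers was 3.55 to 3.96 with LPS against 3.84 to 4.06 without in the wild-type experiment, where 4 of 11 were near the lowest on all arrays with LPS and 4 on all arrays without. In the genotype experiment it was 5.19 to 5.50 with LPS against 4.69 to 5.85 without in wild-type mice and 4.67 to 5.38 against 5.03 to 5.87 in null mice. Procr was higher on the arrays with LPS in all 3 sets of arrays. The part of these cell types in the changes of Procr, Thbd, Plat and Plaur was not tested.

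The genes whose pattern over the 12 group means was most like that of each member were found by the root mean square difference of values centred within experiments, among 12781 genes. This describes a likeness of levels over groups. For Procr they were Gdap10 (0.18), Tnfaip3, an inhibitor of NF-kB signalling (0.18), and Ifi47, an interferon-induced GTPase (0.19), against a root mean square of 1.74 for Procr itself. For Thbd they were Itga8 (0.21), Plscr4 (0.24) and Timp2, an inhibitor of metalloproteinases (0.25), against 1.13. For F10 they were Mmp14, a membrane-bound metalloproteinase (0.19), Atp8b1 (0.20) and Gcnt2 (0.20), against 0.72. For Plat they were Cacna1s (0.17), Msmo1 (0.18) and Gsap (0.20), against 0.60, and for Plaur Thoc6 (0.15), Psmg4 (0.17) and Rabepk (0.20), against 0.54. For Thbs1 they were Txnrd1 (0.26), Angpt2 (0.27) and Slc25a32 (0.28), against 0.65. Those of F3 were Pfkfb4 (0.14), P2rx4 (0.16) and Pycard (0.16), against 0.32. For Serpinb2 they were Slc35d3 (0.16), Pop1 (0.18) and Lrrc8d (0.18), against 0.30, and for Plau Igk-V21 (0.05), Il17rd (0.05) and Gm11696 (0.05), against 0.15; these members were near the lowest on most arrays of an experiment.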

How the data were processed

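RNA from mouse spleen was measured on 28 arrays, and the deposited table holds 1 log2 value per probe set and array for 45101 probe sets. GCRMA and limma stand in the submitters' processing notes without version or role, and that the deposited values are log2 was read from their range and from the lowest value that all arrays of an experiment share. Of the probe sets of an array, 35.9% to 41.9% hold that value, and some repeat another value on several arrays, which can understate changes of low genes and their spread. No pair of arrays was identical (0 pairs). Groups came from the labels. Probe sets were named by GEO's platform annotation (34945 with 1 gene, 932 with several, 9160 with none, 64 controls), and 34741 of the first had an Entrez identifier in RefSeq.

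All tests are limma 3.58.1 (R 4.3.3), adjusted by Benjamini and Hochberg's method over all genes tested. Wild-type comparisons used 20 arrays with the experiment as a term (15 residual degrees of freedom), and those with null mice used 16 arrays in 8 groups (8 residual degrees of freedom). A gene was tested if above the 40th percentile of its array on at least 4 or 2 arrays. Changes are given ± SE and levels ± SD. By the rule for named genes the text gives all 9 members; of the other pathway genes, up to 4 that rose and 4 that fell by smallest adjusted p in each LPS comparison; and for each member the 3 genes most like it. Cdh5, Stab2, Tek, Eng, Cd163 and single arrays were singled out after their values were seen. The members, gene lists and the choice of Xist and Cpa1 as checks were made with earlier results of these data known. Same-numbered replicates were not paired. Of 14 pairs in the wild-type experiment 4 correlated above 0.1 in their deviations from group means (r from -0.16 to 0.38), and of 56 in the other 20 did (-0.70 to 0.51). In a group of 2 arrays these deviations mirror each other, so the 56 and the 20 count each r 2 times.

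Alternatives changed the filter (none, or the 60th percentile), the scaling (arrays quantile normalised or centred on medians), the probe set (another, or their mean), the variance (trended and robust), array weights, the block of replicate numbers, the arrays (each experiment alone, all in 1 fit, without those with Cpa1, without each in turn) and a term for Xist. Plots used matplotlib 3.10.9 and Python 3.11.15.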

Additional observations from a re-analysis of the deposited data

Results flagged for a closer look

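In 6 of 16 sets of 4 replicates tested, all in the wild-type experiment with LPS, 1 array stood apart from the other 3. Chance flags about 1 in 20 such sets where values do not repeat. On the ABA diet these were F10 with 1 array at 5.10 against 4.49 to 4.59, Plaur with 1 array at 7.15 against 6.52 to 6.54, Plat with 1 array at 2.31 against 2.29 on the others, and F3 with 1 array at 2.30 against 2.34 on the others. On the control diet they were F3 with 1 array at 2.36 against 2.34 and Plat with 1 array at 2.29358 against 2.29 on the others. The F3 and Plat values lie near the lowest value, where most arrays repeat 1 number. In these sets the other 3 arrays were identical, so any deviation is flagged and the rate of 1 in 20 does not apply.

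Plaur without LPS in wild-type mice was higher on the ABA diet than on the control diet by 0.20 in the wild-type experiment and differed by -0.70 in the other, with both arrays of each diet on opposite sides. In the wild-type experiment both ABA arrays read 6.52, a value repeated on 5 arrays, and the control arrays 6.13 and 6.51, so the difference there rests on the single array at 6.13. The difference between the experiments was not tested.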

How the results depend on the processing

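Procr and Thbd kept their direction under every alternative run for the 4 LPS comparisons. With only the 8 wild-type arrays of the genotype experiment, 0 members passed on either diet (limma), against 3 each; Procr there was 4.36 on the control diet (adjusted p = 0.0910) and 3.98 on the ABA diet (adjusted p = 0.176). In 1 fit of all arrays 5 passed on each diet, the added members being Plat and Plaur, beside 2453 of 13458 genes on the ABA diet. In null mice 2 of the 4 calls were left without a filter, with array weights or without the arrays with Cpa1. Over all genes, 706 of 18193 passed without a filter and 1410 of 13377 without the arrays with Cpa1. Calls over all genes in the remaining settings lay within the ranges given below. Leaving out 1 array gave 2 to 3 calls on either diet, 1 to 4 in null mice and 2 to 5 in wild-type mice of the same experiment. Over all genes it gave 1825 to 2796 calls on the control diet and 1369 to 2271 on the ABA diet. In the genotype experiment it gave 572 to 1603 in null and 793 to 2339 in wild-type mice. F10 on the control diet read -0.0062 with the probe set 1418993_s_at (adjusted p = 1). With replicate numbers as a block, 3 members passed in null mice in place of 4, Plat being lost (1.12, adjusted p = 0.0540), and no other call of a member changed. Of 1796 member results with 1 array left out, 1746 stayed on their side of the threshold, 48 lost and 2 gained a call. Of 1193 under other alternatives, 1147 stayed, 34 lost and 11 gained a call. In 1 (F10 on the control diet with probe set 1418993_s_at) the call was lost and the sign turned. Most of these results were not calls and could not lose one. Among the calls, those kept with 1 array left out ran from 6 of 16 (Plat in null mice) to all (Procr). Over all genes, 2437 LPS calls on the control diet became 365 to 3529, 2054 on the ABA diet 126 to 2453, 990 in null mice 572 to 1603 and 1879 in wild-type mice of the same experiment 793 to 2339. Calls between genotypes went from 1 to at most 220 without LPS, from 4 to at most 79 with LPS and from 4 to at most 166 for the difference in LPS change, and between diets from 24 to at most 355 and from 13 to at most 177 in null mice and from 2 or fewer to at most 78 in wild-type mice; no member was called in these comparisons under any of them. Signal near the lowest value limits F3, Plat, Plau and Serpinb2 in 1 experiment or both, where a change cannot be seen.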
